A study of Arabidopsis thaliana with 8 samples.

Results

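AT3G13672 (called SINA1 in work on ORE1 and SINA2 among its RefSeq synonyms), ChiC (AT4G19810), AT1G74010, AT1G73750, AT5G39520, AT2G47950 and AT2G31945 are 7 genes of Arabidopsis thaliana whose transcripts were higher in both systems in which ORE1 was to be raised. They were chosen from the measured values. Each has a probe set that was at least 2-fold higher in the treated than in the control array of both same-numbered pairs, in seedlings and in protoplasts. Of 17388 probe sets tested, from 22746 that are not controls, 12 met that rule, 10 of them listed with a single gene. The 7 genes are part of those 10, among 9626 genes tested through a probe set of their own and 13350 measured. Each of the 7 has 1 probe set in the platform's probe table, and none of these probe sets is shared with another gene. All 7 probe sets passed the filter on low values. Because the choice used all 8 arrays, the changes of the 7 genes are given below as a description, without a test.

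ORE1 is a NAC transcription factor that promotes leaf senescence and age-dependent cell death, and the study asked which genes respond early to it. Seedlings were of the line ORE1-IOE in the Col-0 ecotype, in which estradiol switches on ORE1, so the mock-treated controls carry the inducible construct too. Whole seedlings at an age of 2 weeks stood in shaken liquid medium for 2 h, to which either estradiol (10 µM) or, for the mock group, ethanol (0.1%) had been added. Protoplasts came from mesophyll cells of Col-0 plants at an age of 5 weeks and either expressed a 35S:ORE1 construct transiently for 6 h or were labelled wild type (WT). For the WT protoplasts neither a time nor a mock transfection is given in the sources used here, nor whether ORE1-IOE is a single transgenic line. Each of the 4 groups has 2 single-colour Affymetrix arrays, numbered 1 and 2, and the labels do not say whether these are separate plants or preparations, so the spread between them may be technical. ORE1 (AT5G39610) has 0 listed probe sets, and its own level was not analysed here.

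The deposited values are on a log2 scale, on which a difference of 1 is a 2-fold change. The systems lie on different scales: array medians were 6.71 to 6.79 in seedlings and 3.34 to 3.54 in protoplasts, and each protoplast array held 39.8% to 41.6% of its probe sets at its lowest value (within 0.1). Levels are therefore compared within a system, and between systems only as ranks. The cell type labels were set against markers that have a listed probe set. The 4 photosynthesis genes RCA, LHCB4.1, LHCB4.2 and PSAN had a mean percentile of 95.3 to 98.3 on the seedling arrays and of 63.0 to 68.5 on the protoplast arrays, where PSAN read 2.28 and 4.00 in WT. The guard and myrosin cell markers FMA and AT1G22690 and the root hair markers EXPA7 and EXPA18 were all within 0.1 of the lowest value on the 4 protoplast arrays. In bulk samples, fewer cells of a type and less RNA per cell cannot be told apart.

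SINA proteins take their name from a Drosophila gene needed in eye development, and the family includes RING-type E3 ubiquitin ligases, which mark proteins for degradation by the proteasome. ChiC encodes a class V chitinase, a secreted enzyme of glycoside hydrolase family GH18 that cleaves chitin, and its transcript is known to respond to abscisic acid, jasmonate and osmotic stress. For AT1G74010, the gene table names both direct neighbours, SS3 and SS2, strictosidine synthase genes, and AT1G74010 is counted with that family here. The gene table gives no name or function for AT1G73750, AT5G39520, AT2G47950 and AT2G31945 beyond a locus tag and a protein-coding type.

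AT3G13672, the member of the ubiquitin-linked SINA family, lay at the lowest value of the array in WT protoplasts, with log2 values of 2.19 and 2.18, and at 6.38 and 5.99 in protoplasts with 35S:ORE1. In seedlings it read 5.61 and 6.38 with mock treatment and 7.23 and 8.37 with estradiol. In both systems the treated arrays lay above the control arrays without overlap, and AT3G13672 was the 1 gene of the 7 that went from the lowest value to a measured level. The protoplast difference of 4.00 ± 0.42 (SE of the fit, n = 2 arrays per group) is therefore a bound, at least 16.0-fold. In seedlings the difference was 1.81 ± 0.42, a 3.50-fold change. Its spread in seedlings, with SDs of 0.54 for mock and 0.81 for estradiol, was the widest of the 7 genes in each of those groups.

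ChiC, the chitinase gene, read 7.04 and 7.44 in mock-treated seedlings and 8.55 and 9.18 after estradiol. In WT protoplasts it read 10.96 and 10.73, and with 35S:ORE1 13.56 and 13.55. Its groups did not overlap, and it was the 1 gene of the 7 for which every treated array was at least 2-fold above every control array of its system, not merely within the numbered pairs. The difference was 1.62 ± 0.24 (3.07-fold) in seedlings and 2.71 ± 0.24 (6.55-fold) in protoplasts.

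AT1G74010, between the strictosidine synthase genes, read 8.14 and 8.04 with mock and 9.26 and 9.73 with estradiol. In protoplasts it read 11.19 and 11.49 in WT and 12.42 and 12.86 with 35S:ORE1. It had the smallest protoplast difference of the 7, 1.30 ± 0.23 (2.47-fold), and was close to that in seedlings, 1.40 ± 0.23 (2.65-fold).

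AT1G73750 read 5.84 and 6.39 with mock and 7.18 and 7.40 with estradiol, the smallest seedling difference of the 7 at 1.18 ± 0.20 (2.26-fold). In WT protoplasts it read 5.90 and 5.86, and with 35S:ORE1 8.82 and 8.79. Its protoplast pairs differed by only 0.016 between numbers 1 and 2, the closest of the 7, and the difference there was 2.93 ± 0.20 (7.61-fold).

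AT5G39520 read 6.93 and 7.60 with mock and 8.30 and 8.98 with estradiol, so that number 2 was higher than number 1 in both groups. Both seedling pairs gave nearly the same difference, 1.37 and 1.38 (mean 1.37 ± 0.29, 2.59-fold). In protoplasts it read 10.26 and 10.13 in WT and 13.24 on each 35S:ORE1 array, a difference of 3.05 ± 0.29 (8.26-fold).

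AT2G47950 was the gene of the 7 with the largest seedling difference. It read 7.79 and 7.11 with mock and 10.18 and 10.23 with estradiol, 2.76 ± 0.46 or 6.76-fold, the third-largest seedling difference among all tested probe sets. In protoplasts the numbers 1 and 2 lay far apart, at 6.58 and 7.49 in WT and at 8.28 and 9.39 with 35S:ORE1. The protoplast groups still did not overlap, and the difference was 1.80 ± 0.46 (3.49-fold).

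AT2G31945 read 6.82 and 7.43 with mock and 7.95 and 8.81 with estradiol, a difference of 1.25 ± 0.34 (2.38-fold). The lower estradiol array thus lay 0.51 above the higher mock array, the narrowest such gap in seedlings among the 7. In protoplasts it read 10.31 and 10.51 in WT and 11.71 and 12.05 with 35S:ORE1, a difference of 1.47 ± 0.34 (2.77-fold).

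**Figure D1:**
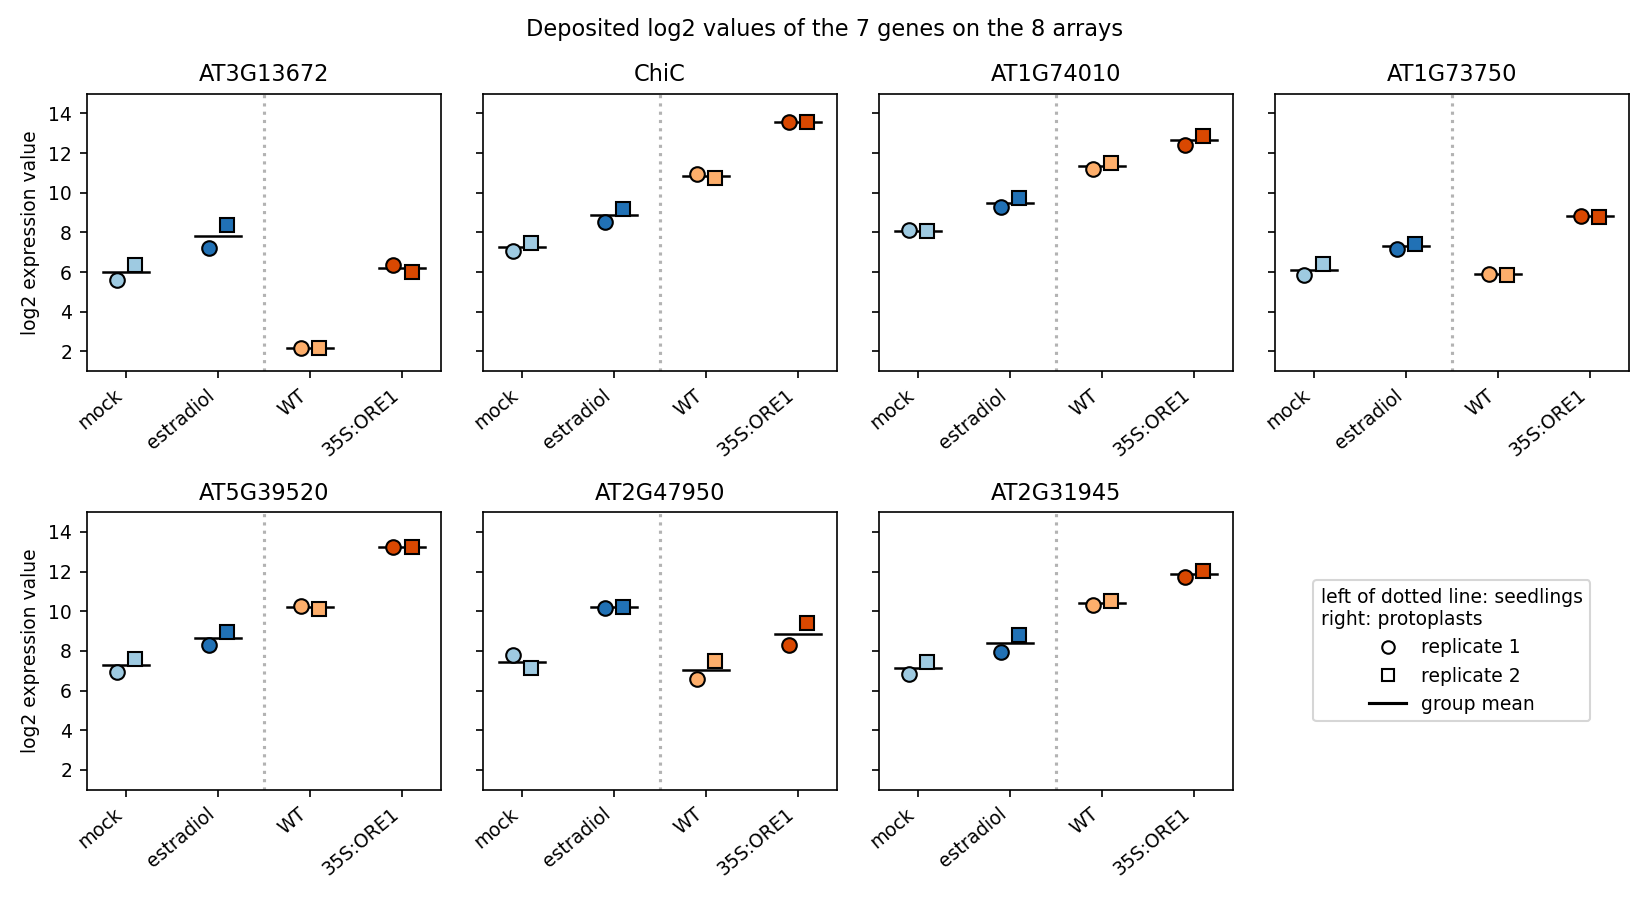
Deposited log2 values (vertical axis) of the 7 genes on the 8 arrays, 1 panel per gene, with circles for replicate 1, squares for replicate 2 and a line for the mean of the 2 arrays. In each panel the treated arrays lie above the control arrays of their system, and AT3G13672 starts at the lowest value of the array in WT protoplasts.

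Across the 7 genes the seedling differences ran from 1.18 to 2.76 with a median of 1.40, where the median over all tested probe sets was 0.018. The protoplast differences ran from 1.30 to 4.00 with a median of 2.71, where the median over all was 0. By the rule that chose them, 0.178% of the tested probe sets were called in seedlings, 3% in protoplasts and 0.069% in both. Ranked by the difference among the 17388, the 7 genes held places 3 to 34 in seedlings and places 94 to 470 in protoplasts. All 7 had treated arrays above control arrays without overlap in both systems, as did 2.68% of the tested probe sets (18.6% in seedlings and 10.8% in protoplasts). These standings follow from the choice and carry no weight as evidence.

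**Figure D2:**
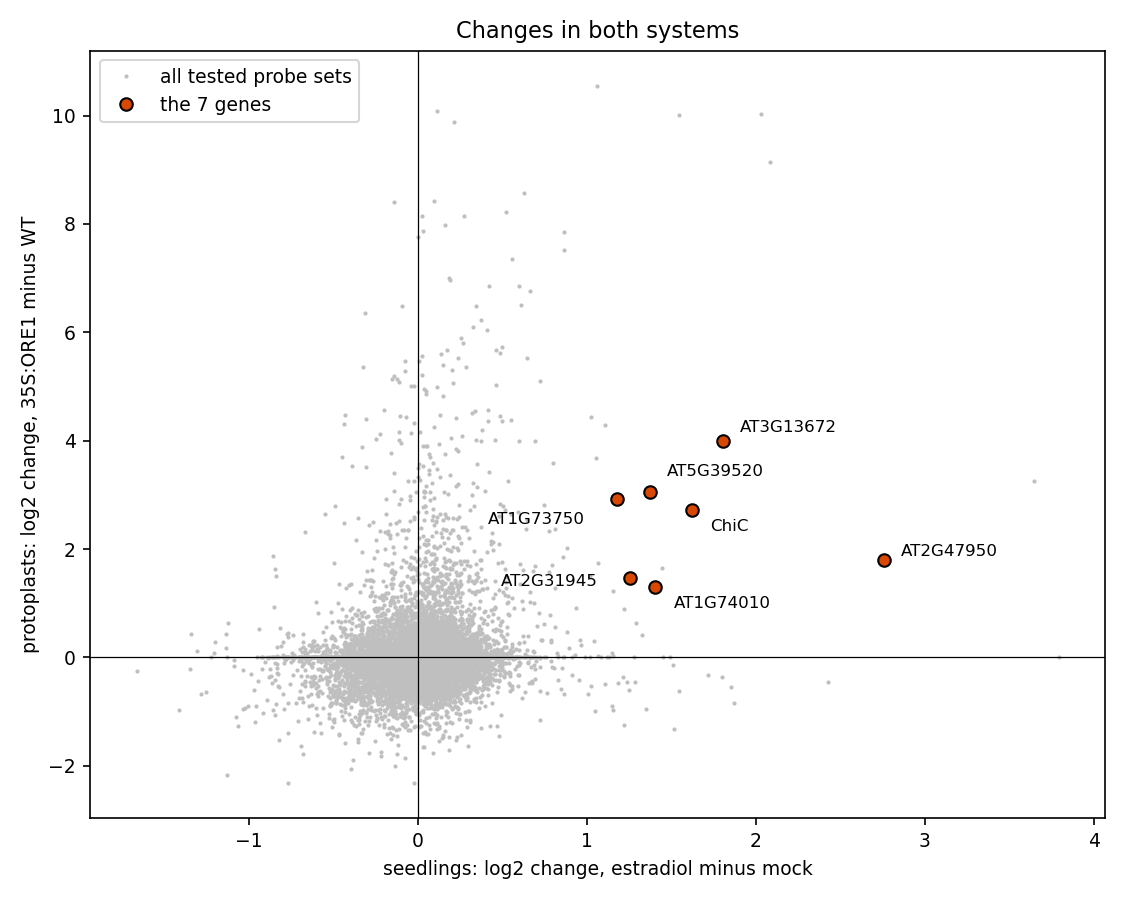
Log2 change of each tested probe set in seedlings (horizontal axis, estradiol minus mock) and in protoplasts (vertical axis, 35S:ORE1 minus WT), with the 7 genes in orange. The 7 lie between 1.18 and 2.76 in seedlings and between 1.30 and 4.00 in protoplasts, and AT2G47950 stands apart from the other genes through its seedling change.

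The order of the 7 genes was not the same in the systems. In seedlings AT2G47950 led, followed by AT3G13672 and ChiC, while AT1G74010, AT5G39520, AT2G31945 and AT1G73750 lay between 1.40 and 1.18. That range was no wider than about 1 SE of AT1G74010 (0.23), AT5G39520 (0.29) or AT2G31945 (0.34), and a little wider than that of AT1G73750 (0.20). The fit does not pair arrays by number. Its SEs, here and below, therefore do not measure the spread of a difference between genes on the same arrays. In protoplasts AT3G13672 led, and AT5G39520, AT1G73750 and ChiC followed between 3.05 and 2.71, with SEs of 0.29, 0.20 and 0.24. AT2G47950, AT2G31945 and AT1G74010 came last there, at 1.80, 1.47 and 1.30. The protoplast difference was larger than the seedling difference in 5 genes and smaller in 2, AT2G47950 (by -0.95) and AT1G74010 (by -0.10). Over the 7 genes the rank correlation of the 2 differences was 0.071 (Spearman; Pearson r = -0.062, n = 7 genes, chosen genes that share the same arrays, given as a description). The differences between systems in these 7 genes were not tested, as the rule used both changes, and tissue, time and the way of raising ORE1 differ between the systems along with the scale.

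By the whole course over the 8 arrays, each centred on the mean of its system, some of the 7 genes fell near to each other. The distances use the values that the rule used and are a description. AT1G73750 and AT5G39520 were the closest pair (Euclidean distance 0.41 on the log2 scale), and ChiC was near to both, at 0.60 and 0.46. AT1G74010 and AT2G31945 formed the other close pair (0.62). AT3G13672 and AT2G47950 stood apart from these groups and were the farthest from each other (2.99). The nearest of the 7 to AT2G47950 was AT1G74010 (1.66). For AT3G13672 it was AT5G39520 (1.14), farther than the serine carboxypeptidase-like gene scpl48 outside the 7 (1.05).

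The selection pairs arrays by number, and this mattered for its outcome. In seedlings number 2 was higher than number 1 in 7 of 7 genes with estradiol and in 5 of 7 with mock, so that number 2 tended to be the higher array of both groups. When every treated array had to be 2-fold above every control array, ChiC was the 1 gene of the 7 that still met the rule, with 5 probe sets in all (0.0288% of those tested). The lowest such difference was 0.85 for AT3G13672, 0.80 for AT1G73750, 0.70 for AT5G39520 and 0.51 for AT2G31945 in seedlings, and 0.94 for AT1G74010 and 0.79 for AT2G47950 in protoplasts. Quantile normalization of all 8 arrays moved 5 seedling differences by more than 1.5 times, those of AT3G13672 (to 2.80), ChiC (to 2.44), AT1G73750 (to 1.95), AT5G39520 (to 2.12) and AT2G31945 (to 2.02). Leaving out the second estradiol array brought the seedling difference of AT2G31945 to 0.82. Of the 7 genes, AT1G73750 lay nearest the threshold, with a lowest pair difference of 1.02, and AT1G74010 and AT2G31945 followed with 1.12 each. The nearest probe set inside was that of AT1G80450, at 1.00, and just outside lay AT1G02470 (0.97), the serine carboxypeptidase-like gene scpl48 (0.88) and a probe set with no listed gene (0.88).

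**Figure D3:**
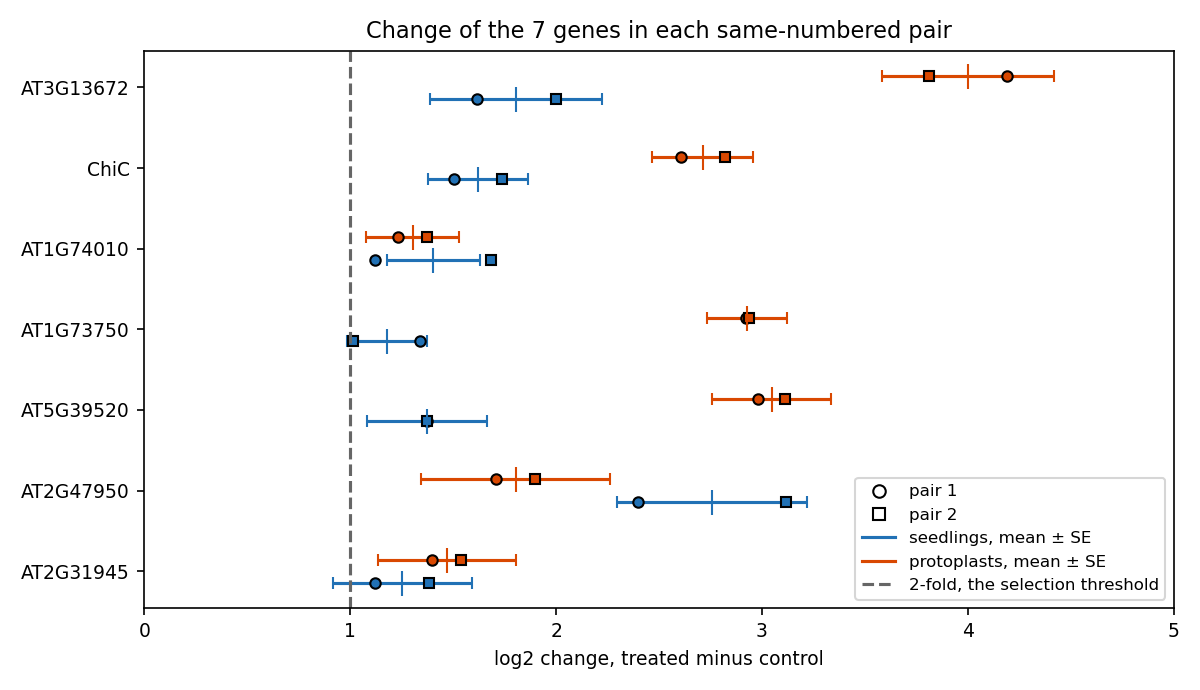
Log2 change of the 7 genes, treated minus control, in pair 1 (circles) and pair 2 (squares), in seedlings (blue) and protoplasts (orange), with the mean and the SE of the fit and a dashed line at the 2-fold threshold. All points lie at or beyond 1, with the seedling pair 2 of AT1G73750 at 1.02 nearest to the line.

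The control values entered the rule through the differences, so their ranks are given as a description, with no test. Ranked on its own array, ChiC stood at percentiles 54.2 and 60.4 in mock-treated seedlings and at 95.4 and 94.1 in WT protoplasts. AT5G39520 stood at 52.8 and 62.6 with mock and at 92.6 and 91.7 in WT protoplasts, and AT2G31945 at 51.1 and 60.2 and at 92.9 and 93.3. AT1G74010 went from 70.8 and 69.3 to 96.1 and 96.4. These 4 genes thus lay above the 90th percentile in WT protoplasts, in the control of that system. AT1G73750 (41.6 and 61.6 on average) and AT2G47950 (60.5 and 70.1) were also ranked higher in WT protoplasts, and so in 6 of 7 genes both WT arrays ranked above both mock arrays, an order that 39.6% of the tested probe sets showed too. AT3G13672 went the other way, from 39.9 to 16.5, the rank shared by probe sets at the lowest value. Of all tested probe sets, 1.55% had a rank gap as large as that of ChiC, 1.56% one as large as that of AT2G31945, 1.95% one as large as that of AT5G39520 and 3.99% one as large as that of AT1G74010. The share was 7.29% for AT1G73750, 20.9% for AT2G47950 and 88.3% for AT3G13672, whose gap was negative. Whole seedlings and mesophyll protoplasts differ in age, tissue and handling, and the arrays in their processing, so what lies behind the rank gap cannot be told apart.

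On the treated arrays the ranks were higher than on the controls of each system. ChiC reached percentiles 99.7 and 99.4 and AT5G39520 99.5 and 99.2 in protoplasts with 35S:ORE1, near the top of the array. AT3G13672 reached 64.7 and 62.0 there and 56.3 and 74.1 in seedlings with estradiol. AT2G47950 ranked higher in seedlings with estradiol, at 92.3 and 92.7, than in protoplasts with 35S:ORE1, at 80.1 and 87.7. For AT3G13672 the ranks of these groups overlapped, and the other 5 genes ranked higher in the protoplasts.

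**Figure D4:**
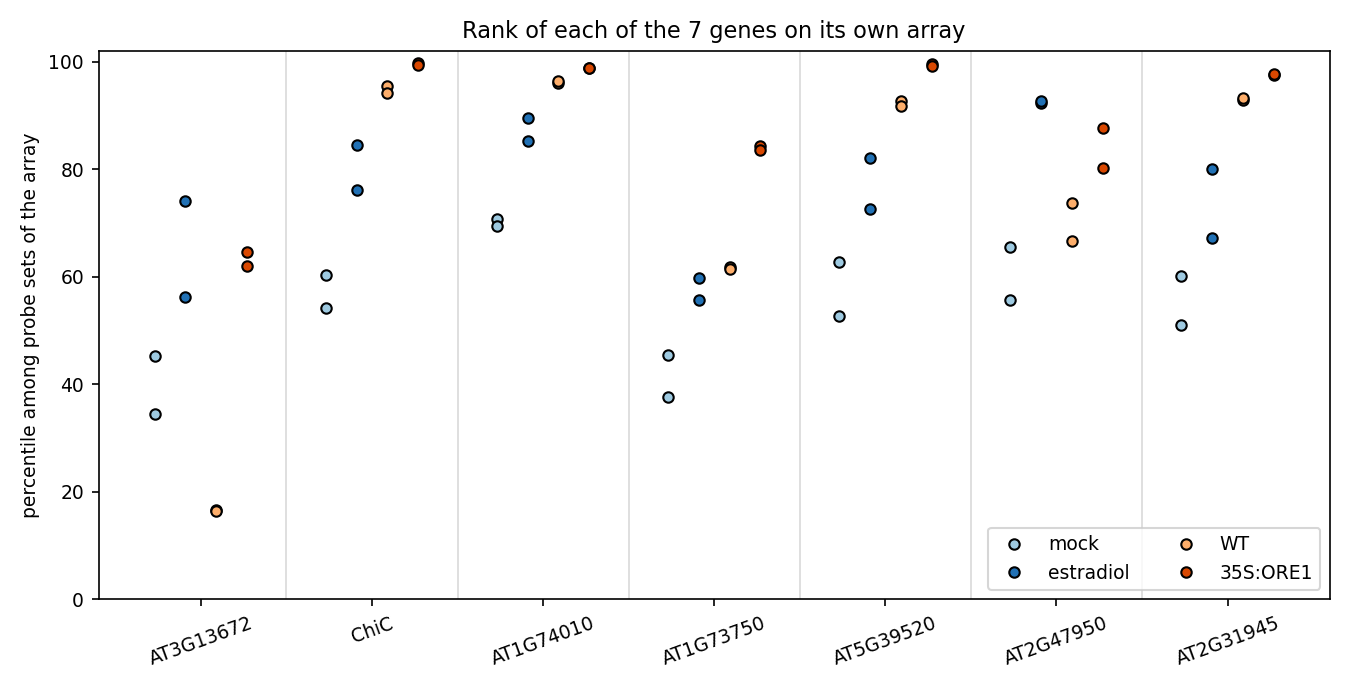
Percentile of each of the 7 genes among the 22746 probe sets of its array (vertical axis), 2 arrays per group, in seedlings (blue) and protoplasts (orange), controls pale and treated arrays dark. ChiC, AT1G74010, AT5G39520 and AT2G31945 lie above the 90th percentile in WT protoplasts, whereas AT3G13672 shares the rank of probe sets at the lowest value there.

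The other tested genes of the families were among the 17388 probe sets that the rule screened, and none met it. That they lack a 2-fold rise in both pairs of both systems follows from the selection. A change in a single system does not. They were tested with limma over all 17388 probe sets. Of these, 0.00575% passed an adjusted p of 0.05 in seedlings and 3.77% in protoplasts (3% higher and 0.771% lower). At these shares a short list may well hold no call, in this family and in the lists below. For an unadjusted p under 0.05 no such share is given. No other tested SINA gene passed. Of 16 further genes in the list, 14 have a listed probe set and 10 passed the filter. Of these 10, 0 passed in either system (limma, also 0 at an unadjusted p under 0.05 and 0 with replicate as a block). The changes ran from -0.11 to 0.32 in seedlings and from -0.08 to 0.31 in protoplasts. The largest by the moderated t were AT1G66620 (0.32 ± 0.14) and AT5G37930 (0.25 ± 0.17) in seedlings and AT5G37930 (0.31 ± 0.17; limma adjusted p = 0.652) and AT2G41980 (0.25 ± 0.17; adjusted p = 0.845) in protoplasts. On the protoplast arrays 7 of the 14 lay at the lowest value throughout, as AT3G13672 did in WT. Among the 10 tested, these include AT1G66650, AT5G37870 and AT5G62800. AT1G66620 (2.97 and 3.08) and AT1G66660 (7.02 and 6.94) lay above it but read the same in WT and 35S:ORE1 on each number. For these genes the lack of a call in protoplasts says little.

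Nor did any other tested chitinase gene pass. Of 23 further genes of the GH18 and GH19 families, 14 have a listed probe set and 9 were tested. Over all tested probe sets 0.00575% passed in seedlings and 3.77% in protoplasts. The 9 had 0 calls in either system (limma, 0 at an unadjusted p under 0.05 and 0 with the block). AT2G43620 (0.64 ± 0.35) and AT2G43590 (0.52 ± 0.30) had the largest moderated t in seedlings, and AT3G47540 (-0.20 ± 0.13; adjusted p = 0.838) and AT4G01700 (-0.22 ± 0.28) in protoplasts. AT4G19820, the GH18 gene next to ChiC, lay at the lowest value on the protoplast arrays. AT2G43580, which the filter on low values left untested and which was picked here after its values were seen, read 2.72 and 3.25 in WT and 3.52 and 4.53 with 35S:ORE1, higher in both pairs. In protoplasts 6 of the 14 lay at the lowest value, so a change from a level below it could not be seen.

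The strictosidine synthase-like genes apart from AT1G74010 had lower means in protoplasts in 5 of 5 tested genes, from 14 in the list. Their median there was -0.47. Over all tested probe sets the median was 0, and 38.7% had a lower mean, 31.4% a higher one and the rest no change. None of the 5 was among those without change. In seedlings 3 of the 5 had higher means, AT3G57010 (0.15), AT3G57020 (0.11) and AT3G57030 (0.022), and 2 lower ones, with a median of 0.022. None of the 5 passed in either system (limma; 1 at an unadjusted p under 0.05 in each system; 0 with the block). AT3G51450 was the lowest in both, at -0.58 ± 0.19 in seedlings and -0.63 ± 0.19 in protoplasts (adjusted p = 0.200). AT3G57020 (-0.52 ± 0.31 in protoplasts; adjusted p = 0.761) and AT3G51440 (-0.30 ± 0.30 in seedlings) came next. SS3 and SS2 themselves have no listed probe set of their own.

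Genes beside the 7 on the chromosome did not pass either. Of the 28 annotated genes within 2 places on each side, 13 have a listed probe set and 11 were tested. Over all tested probe sets 0.00575% passed in seedlings and 3.77% in protoplasts. The 11 had 0 calls in both systems (limma, 0 at an unadjusted p under 0.05 and 0 with the block). Their changes ran from -0.55 (AT2G31940, beside AT2G31945) to 0.28 in seedlings and from -0.05 to 0.20 in protoplasts. In protoplasts 5 of the 13 lay at the lowest value, and AT4G19790 and AT4G19830 read the same in WT and 35S:ORE1 on each number. For these genes the lack of a call there says little. The neighbours of AT5G39520 are without a listed probe set of their own.

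**Figure D5:**
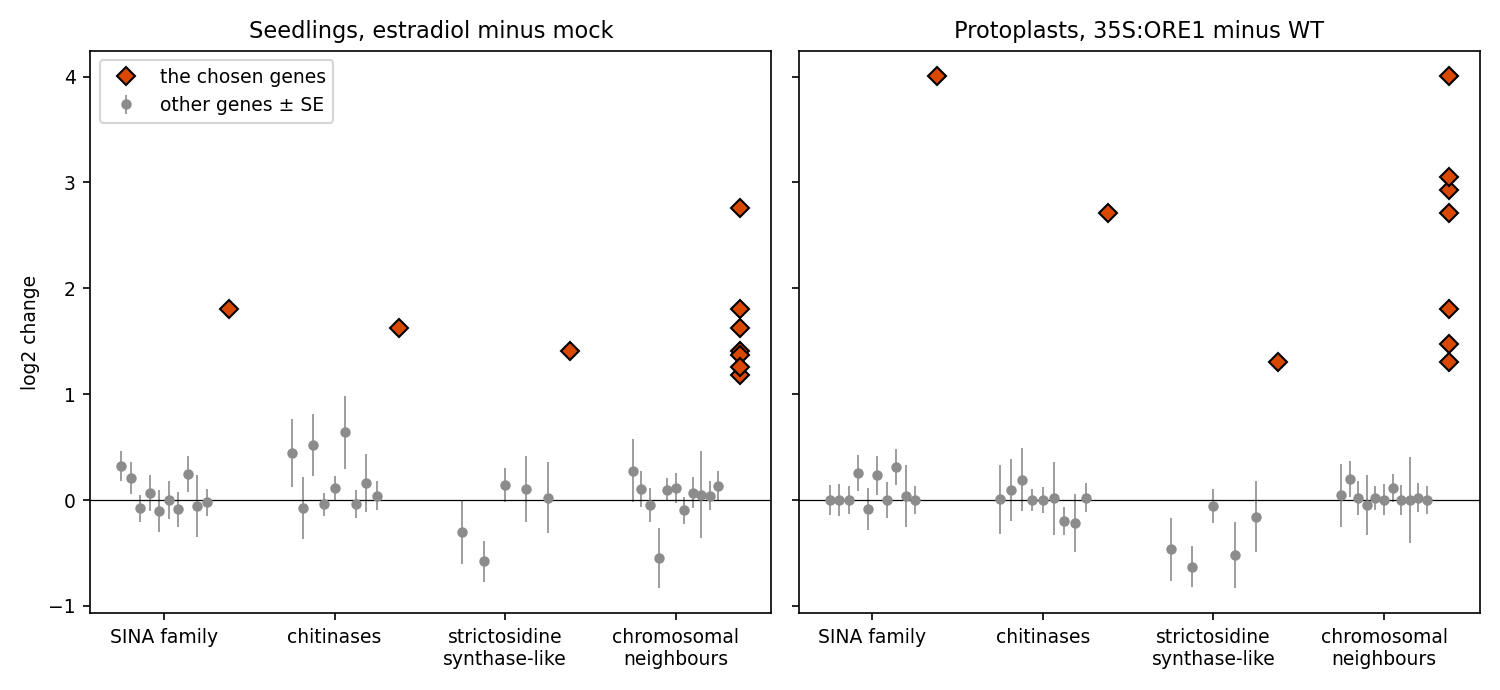
Log2 change (vertical axis) of the tested genes of each family or position (grey, with the SE of the fit) and of the chosen genes (orange diamonds), in seedlings on the left and protoplasts on the right. The grey points lie between -0.63 and 0.64, and the chosen genes between 1.18 and 4.00, where the selection placed them. The grey genes were screened by the same rule and did not meet it.

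Reported ORE1 targets gave 2 further genes with a listed probe set, of 9, besides AT3G13672. Both had higher means in protoplasts with an unadjusted p under 0.05 (limma), and 1 of them passed the adjusted threshold there. This was SAG29, also called SWEET15, a sugar exporter gene (9.15 ± 0.63; limma adjusted p = 0.000648), while NOL, a chlorophyll b reductase gene, had a difference of 0.55 ± 0.22 (adjusted p = 0.371). Fitted without the seedlings, SAG29 did not pass (adjusted p = 0.107), whereas NOL did once replicate was a block (adjusted p = 0.0357). In seedlings SAG29 had a difference of 2.08 ± 0.63 (adjusted p = 1) and NOL one of 0.16 ± 0.22. The signed change of SAG29 was larger in protoplasts on the deposited scales, which differ between the systems (limma adjusted p = 0.0175). This call was lost after quantile normalization (adjusted p = 0.171) and without each seedling array (adjusted p = 0.116 to 0.140). Of the tested probe sets 1.62% passed that test, 0.155% with seedling change minus protoplast change above 0 and 1.46% with it below 0. SAG29 is also 1 of the 12 probe sets that met the rule above, so its changes are no support separate from that selection. Such targets were in part reported from ORE1 arrays, perhaps these, and their direction here is not independent evidence. Of 5 tested senescence genes, which include SAG29 again, 2 had higher and 2 lower means in protoplasts. Over all tested probe sets 31.4% had a higher mean there and 38.7% a lower one. SAG29 was the 1 of the 5 that passed in protoplasts, and SAG101 had a difference of -0.60 ± 0.29 there (limma adjusted p = 0.572).

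Markers of stress and of the mesophyll had lower means without passing. A lower mean was also found in 45.8% of all tested probe sets in seedlings and in 38.7% in protoplasts. A higher mean was found in 54.0% and 31.4%, and the rest had no change. Only 3 of 12 stress genes and 4 of 14 mesophyll genes in the lists have a listed probe set. The 3 touch and early stress genes CML38, CML37 and STZ (ZAT10) were lower on average in both systems, from -0.47 to -0.21 in seedlings and from -0.17 to -0.13 in protoplasts, and none passed (limma; 1 in seedlings and 0 in protoplasts at an unadjusted p under 0.05, and 0 with the block). The 4 photosynthesis genes had lower means in protoplasts with 35S:ORE1, by a median of -0.43, and their summed log2 level was 23.2 and 23.3 there against 24.3 and 25.9 in WT. None of the 4 passed (limma, 0 at an unadjusted p under 0.05 and 0 with the block), and their part in the changes of the 7 genes was not tested. The guard, myrosin and root hair markers stayed at the lowest value in both protoplast groups. In seedlings AT1G22690 was lower in both pairs, by a mean of -0.40 ± 0.13, which did not pass (limma adjusted p = 1, though under 0.05 unadjusted), and its part in the changes of the 7 genes was not tested.

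By a distance over the 8 arrays, each centred on the mean of its system, the genes outside the 7 most like their median course were AT2G23110 (distance 1.15), AT5G04390 (1.16), AT1G02660 (1.17), AT5G49710 (1.18) and AT5G18640 (1.23), among 9678 tested probe sets with 1 gene. They share large protoplast differences, from 2.36 to 3.68, with seedling differences of 0.49 to 1.05. AT3G13672 was most like scpl48 (1.05), AT1G02660 (1.23) and AT5G04390 (1.31), and ChiC most like AT2G23110 (1.21), AT1G80450 (1.22) and AT5G04390 (1.26). For scpl48 the differences were 1.11 ± 0.18 in seedlings and 4.29 ± 0.18 in protoplasts, beside 1.81 and at least 4.00 for AT3G13672. These genes were picked for their likeness over the same arrays, and no test is given for them.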

How the data were processed

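Total RNA was measured on 8 Affymetrix arrays. The authors deposited 1 log2 value for every probe set and array. GCRMA and RMA are named, per the submitters' processing notes, without saying which arrays each served. The members and gene lists were chosen with earlier results of these data known. Gene names came from the platform's probe table through locus tags: among 22810 probe sets were 64 controls, 13513 with a single symbol, 503 with several and 8730 others not listed there. A gene with several was read from its brightest. Probe sets reaching log2 5 on at least 2 arrays were fitted with limma 3.58.1 (R 4.3.3), 1 mean per group, two-sided, Benjamini-Hochberg adjusted p under 0.05, which leaves 4 residual degrees of freedom. The fit was tested on simulated data. The SEs are from this fit, so both systems share 1 SE for a gene. Percentiles use mean ranks over 22746 probe sets. The rule named all 7 genes, and for every list and comparison the 2 other genes with the largest moderated t and those past the threshold. The plan had allowed up to 4 others. Some further genes are named outside this rule, as markers, to give signs, or for values that were equal or at the lowest value. The lists for epidermis and vasculature had no listed probe set. Alternatives were a replicate block, no filter, quantile normalization, median centring, a trend in the prior, each system alone and leaving out each array. The number of arrays limits the precision.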

Additional observations from a re-analysis of the deposited data

Results flagged for a closer look

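SAG29 (SWEET15), the reported ORE1 target beside AT3G13672 in the list, differed between the systems: the seedling change minus the protoplast change was -7.07 ± 0.88 (SE of the contrast over the 8 arrays; adjusted p = 0.0175 by limma), with both changes upward in both pairs. SAG29 also met the rule that chose the 7 genes. It read 2.56 and 3.78 in WT protoplasts, near the lowest value on number 1, and 7.30 and 6.71 in mock-treated seedlings. The systems lie on different scales and differ in tissue, time and the way of raising ORE1. What lies behind the difference cannot be told apart. Without each of the 4 seedling arrays in turn the difference was -6.77 to -7.36 with SEs of 1.08 to 1.12, and the call was lost (adjusted p = 0.116 to 0.140). It was lost too after quantile normalization (-3.93; adjusted p = 0.171), and was kept without each protoplast array (adjusted p = 0.00779 to 0.0420).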

How the results depend on the processing

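The changes of the 7 genes stayed positive under quantile normalization and median centring; without 1 array a positive sign is fixed by the groups not overlapping. Without 1 array the seedling change ranged from 1.23 to 2.38 for AT3G13672, 1.30 to 1.94 for ChiC, 0.91 to 1.45 for AT1G73750, 1.04 to 1.71 for AT5G39520, 0.82 (without the second estradiol array) to 1.69 for AT2G31945, 1.17 to 1.64 for AT1G74010 and 2.42 to 3.09 for AT2G47950, and the protoplast change of AT2G47950 from 1.25 to 2.36. The rule was met by 7 of 7 genes under both scalings and by 1 with all 4 cross comparisons. The genes were chosen by it on these same arrays, so the counts are a description. Leaving out a pair only relaxes the rule. Probe sets meeting it numbered 12, with 5 by cross comparisons, 19 after quantile normalization and 12 to 21 with 1 pair left out (21 without seedling pair 1). In seedlings 1 probe set was called, against 3 after quantile normalization and 0 under the replicate block, with a trend, with the 4 seedling arrays alone and without any array. In protoplasts 656 were called, against 1343 with the block, 373 after quantile normalization, 145 with the 4 protoplast arrays alone and 376 to 528 without 1 array (407 without WT replicate 1 and 376 without WT replicate 2). The share of rises there, 79.6%, was 61.1% with the block, 58.5% after median centring and 93.1% in protoplasts alone. Differences between systems numbered 281, with 487 under the block, 148 after quantile normalization and 130 to 250 without 1 array (130 to 153 without a seedling array and 184 without WT replicate 1). The causes were not tested. Same-numbered arrays deviated together (r = 0.656 in seedlings and 0.787 in protoplasts, 2 pairs each), but the labels do not say what a number shares. Some probe sets above the lowest value read the same in WT and 35S:ORE1, such as AT1G66660, at 7.02 on each number 1 array and 6.94 on each number 2 array. In protoplasts 31.4% of the tested probe sets had a higher mean, 38.7% a lower one and the rest no change. The rest include probe sets at the lowest value in both groups, such as EXPA7. Whether the protoplast arrays of a number are wholly separate readings was not tested. Equal values of either kind enter the r of 0.787. Median centring turned AT1G22690 (to -0.13) and AT3G13670 (to -0.060) in protoplasts. Without 1 array the sign turned for AT3G13670 (-0.0028 to 0.23) and AT4G01700 (-0.51 to 0.069) in protoplasts, and in seedlings for EXPA18 (-0.35 to 0.067), LHCB4.2 (-0.996 to 0.51), FMA (-0.088 to 0.28), AT3G51440 (-0.61 to 0.0083), LHCB4.1 (-0.38 to 0.096), NOL (-0.11 to 0.42) and CML37 (-0.49 to 0.081), none of them called.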
